A study of Ovis aries with 60 samples.

Results

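The 10 genes described here belong to the interleukin 1 (IL1) system and to the response of the transcription factor NF-kB. They were chosen by name, with earlier results of these data known. The ligands are IL1A, IL1B and IL18, the antagonist is IL1RN, and the receptors are IL1R1, IL1R2 and LOC101108354. The NF-kB response genes are CXCL8, NFKBIA and TNFAIP3. All 10 of the 10 genes had a row among the 28525 genes of the count table. All 10 also passed the filter of at least 15 reads in more than 10 of 20 rams, which 13577 genes passed. The study described the same filter and reported a larger number of expressed genes. The cause of this difference was not tested. The gene listed as LOC101108354 is IL1RAP in the RefSeq annotation of the assembly ARS-UI_Ramb_v3.0.

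RNA of sperm was sequenced in 20 rams of the F2 generation of Polypay sheep, and DNA methylation of sperm was measured by bisulfite sequencing in 10 F0 rams, 10 pools of F1 sheep and the same 20 F2 rams. The methionine line descended from 5 F0 rams whose control diet was supplemented with encapsulated methionine, a methyl donor, from weaning to puberty. The control line descended from 5 F0 rams given the control diet alone, each the twin brother of a supplemented ram. The F1 and F2 sheep of both lines received only the control diet, and the F2 generation gave 10 rams a line for each assay. The 2 F2 rams of an F0 sire were sons of the same F1 ram, so that a line rests on 5 sires. For RNA, pelleted semen cells were held in a buffer that lyses somatic cells before extraction. The question put to these genes was whether their levels followed the diet line, and whether they varied with a leukocyte gene or with an epithelial gene.

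IL1A and IL1B bind the receptor IL1R1, which then recruits the accessory chain IL1RAP and activates NF-kB through adaptors and kinases. IL1RN occupies IL1R1 without signalling, and IL1R2 is a decoy that binds ligand but lacks a signalling domain. IL18 is a related cytokine that is cut to its active form by an inflammasome protease. NF-kB switches on CXCL8, which attracts neutrophils, and also its own brakes: NFKBIA, which holds NF-kB in the cytoplasm, and TNFAIP3, a ubiquitin-editing enzyme that ends the signal. Myeloid leukocytes and barrier epithelia are both known sources of these products, whereas mature sperm are largely silent in transcription. PTPRC encodes CD45, found on leukocytes in general, and KRT78 is a keratin of stratified squamous epithelium.

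The RNA libraries differed widely in their total counts and in the cells they represented. Total counts ran from 805831 to 13137757 per library, with a median of 3436936. These are reads counted in genes, and the study reported a narrower range for the reads sequenced per library. All 12 spermatid genes found in the table were read in every ram, and their summed level ranged from 425 to 35833 TMM CPM, the reads of a gene as CPM of its library after TMM scaling between libraries. This sum was led by 1 gene, CCDC168, which alone ran from 298 to 33191 TMM CPM. PRM1, the next by its median, ran from 34.8 to 1531, and both were named after their values were seen. The 10 leukocyte genes were also read in every ram, with a summed level of 72.3 to 2045 TMM CPM in the methionine line and of 54.2 to 8595 in the control line. The 12 squamous genes summed to 246 to 44236 TMM CPM in the methionine line and to 176 to 70887 in the control line. Somatic genes of the testis summed to at most 51.3 TMM CPM and erythroid genes to at most 23.7. Methionine ram 7 and control ram 10 stood apart, with 62.2 and 29.6 TMM CPM of KRT78 against a median of 8216, and control ram 1 stood apart by its leukocyte genes, 8595 TMM CPM in sum. In such bulk RNA, fewer cells of a type and less RNA per cell cannot be told apart.

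Rams at the ends of the range were the same for most of the 10 genes. Control ram 1 held the highest level of 9 of the 10 genes, all but IL18, whereas it was the highest ram for 13.3% of the 13577 genes tested. Methionine ram 7 and control ram 10 were the 2 lowest for 8 of the 10 genes, all but IL1R1 and IL18, against 16.4% of all genes. Raw counts behind the low extremes reached down to 5 reads, for CXCL8 in methionine ram 7. IL18 had 8 reads in methionine ram 7 and 7 reads in control ram 10.

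The ligands IL1A and IL1B varied over a wide range within each line. IL1A had its lowest, median and highest level at 11.7, 93.0 and 294 TMM CPM in the methionine line and at 10.2, 135 and 966 TMM CPM in the control line. IL1B had 8.08, 260 and 656 TMM CPM in the methionine line and 1.89, 369 and 2279 TMM CPM in the control line. The control range of either ligand enclosed the whole methionine range, since the lowest ram was control ram 10 and the highest was control ram 1. The third ligand, IL18, was scarce, with 2.11, 14.1 and 27.9 TMM CPM in the methionine line and 1.66, 10.6 and 43.2 TMM CPM in the control line. Its highest ram was control ram 8, and control ram 1 ranked sixth with a level of 22.6 TMM CPM.

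IL1RN, the antagonist, spanned 10.74 between the lowest and the highest ram in log2 TMM CPM, which here and below includes a prior count of 2 that narrows the range of genes with few reads. Its lowest, median and highest levels were 8.89, 1093 and 2062 TMM CPM in the methionine line and 8.05, 1047 and 14591 TMM CPM in the control line. The level of IL1RN in control ram 1 was 5.44 times that of the next ram.

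The receptors differed among themselves in how far they varied. IL1R1, the signalling receptor, had the narrowest range of the 10 genes, 2.08 on the log2 scale. It had 22.6, 42.3 and 60.3 TMM CPM as lowest, median and highest level in the methionine line and 23.7, 29.8 and 97.1 TMM CPM in the control line. The decoy IL1R2 spanned 5.997 on the log2 scale, with 21.8, 98.2 and 308 TMM CPM in the methionine line and 26.3, 90.5 and 1425 TMM CPM in the control line. LOC101108354 (IL1RAP), the accessory chain, had 3.23, 53.8 and 168 TMM CPM in the methionine line and 3.55, 42.7 and 413.5 TMM CPM in the control line. In methionine ram 7 and control ram 10, IL1R1 stood at 39.2 and 24.6 TMM CPM, within the range of the other rams, whereas IL1R2 and LOC101108354 were at their lowest there.

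The NF-kB response genes also varied widely, and CXCL8 spanned 10.55 in log2 TMM CPM, so that its order against IL1RN rests on the prior count. CXCL8 had a lowest, median and highest level of 2.02, 471 and 2516 TMM CPM in the methionine line and of 4.74, 601 and 3779 TMM CPM in the control line. NFKBIA had 10.5, 1122 and 6063 TMM CPM in the methionine line and 17.3, 1434 and 9989 TMM CPM in the control line. TNFAIP3 had 10.1, 445 and 1118 TMM CPM in the methionine line and 8.05, 445 and 2728 TMM CPM in the control line. For each of these genes, the lowest ram of its line was methionine ram 7 or control ram 10.

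**Figure D1:**
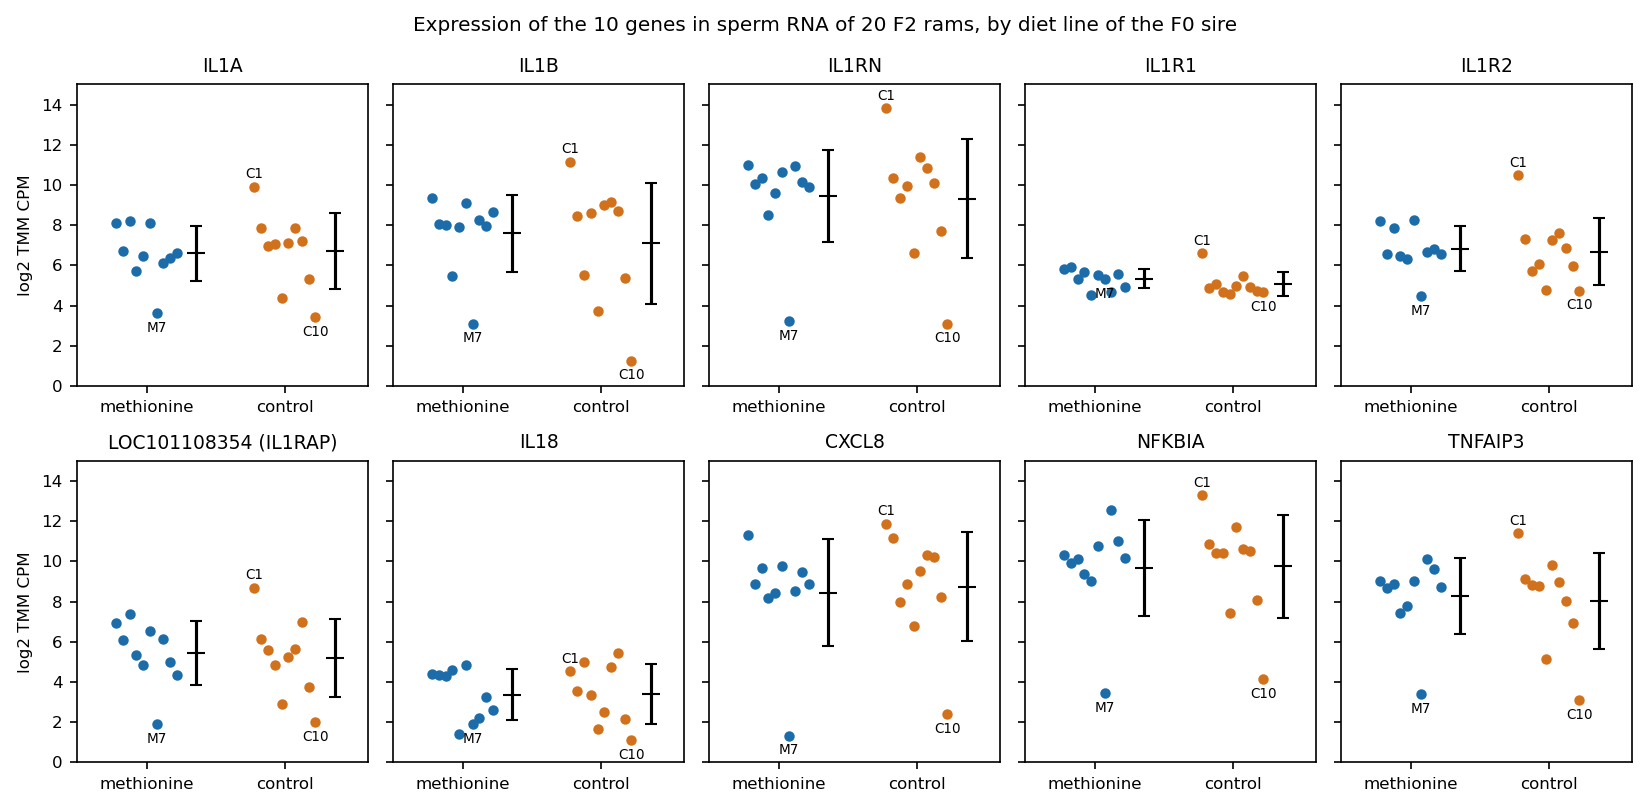
Log2 TMM CPM of each of the 10 genes (vertical axis) in the 10 F2 rams of the methionine line and the 10 of the control line; each point is a ram, and the bar beside it is the mean with its SD. The lines overlap for every gene, control ram 1 is the highest ram for 9 of the genes, and methionine ram 7 and control ram 10 are low for all but IL1R1.

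Most of the 10 genes rose with the leukocyte gene PTPRC across rams. PTPRC itself had 19.4, 92.8 and 371 TMM CPM as lowest, median and highest level in the methionine line and 15.9, 104 and 1241 TMM CPM in the control line. Over 20 rams, 8 of the 10 genes rose with PTPRC (Spearman's rho, permutation test with 100000 resamples, Benjamini-Hochberg adjusted p at most 0.05 over 13576 genes), where 7.98% of all genes did. The median rho of the 10 genes was 0.79 and that of all genes tested was 0.01. All log2 CPM values of a ram share its library, depth and scaling factor.

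The ligand IL1A had a rho of 0.87 with PTPRC (Pearson's r = 0.90, adjusted permutation p = 0.00049 for rho and 0.00030 for r). Both rest on an unadjusted permutation p of 1e-05, the smallest that 100000 resamples can give. Adjusted values at this floor do not rank the genes. IL1B had a rho of 0.79 (r = 0.84, adjusted permutation p = 0.0023 for rho). The antagonist IL1RN followed PTPRC as IL1A did, with a rho of 0.87 and an r of 0.85. Among the receptors, the decoy IL1R2 had a rho of 0.86 and LOC101108354 a rho of 0.75. The NF-kB response genes had rho of 0.78 for CXCL8, 0.77 for NFKBIA and 0.87 for TNFAIP3. The rho of these 8 genes lay between the 95.9 and 98.5 percentile of all genes tested.

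IL1R1 and IL18 did not pass the test with PTPRC. IL1R1 had a rho of 0.30 (r = 0.42, adjusted permutation p = 0.15 for r), and IL18 a rho of 0.43 (r = 0.46, adjusted permutation p = 0.12 for r). Their rho stood at the 72.5 and 84.2 percentile of all genes.

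The number of genes that rose with PTPRC depended on a few rams. Without methionine ram 7 and control ram 10, 6 of the 10 genes rose with PTPRC, where LOC101108354 (rho = 0.66, adjusted permutation p = 0.065) and NFKBIA (rho = 0.68, adjusted permutation p = 0.0503) no longer passed. Without control ram 1 the count was again 8, and without methionine ram 7 and control rams 1 and 10 it was 4, namely IL1A, IL1RN, IL1R2 and TNFAIP3. The Pearson correlation without the 2 rams farthest from the median of PTPRC, control rams 10 and 1, was 0.84 for IL1A, 0.77 for IL1B, 0.78 for IL1RN and 0.69 for CXCL8, and 0.06 for IL1R1. The raw counts of the 2 rams of each F0 sire were also summed, so that each sire gave 1 value. Here and below, the ram with more counts weighs more in such a sum. The totals of the 2 rams of sire 9, for example, were 9914728 and 1361691. With these sums, rho over 10 sires was 0.85 for IL1A, 0.76 for IL1R2, 0.73 for IL1B and 0.67 for IL1RN. It was lower for CXCL8 (0.52), LOC101108354 (0.38), TNFAIP3 (0.37) and NFKBIA (0.35), and negative for IL1R1 (-0.10) and IL18 (-0.48). By sire no gene of all those tested passed.

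The other 9 leukocyte genes, summed without PTPRC, gave the same count of 8 genes. Spearman's rho with that sum was highest for IL1RN, at 0.91, and for TNFAIP3, at 0.89. The part of leukocyte number and of expression per leukocyte in these relations was not tested.

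**Figure D2:**
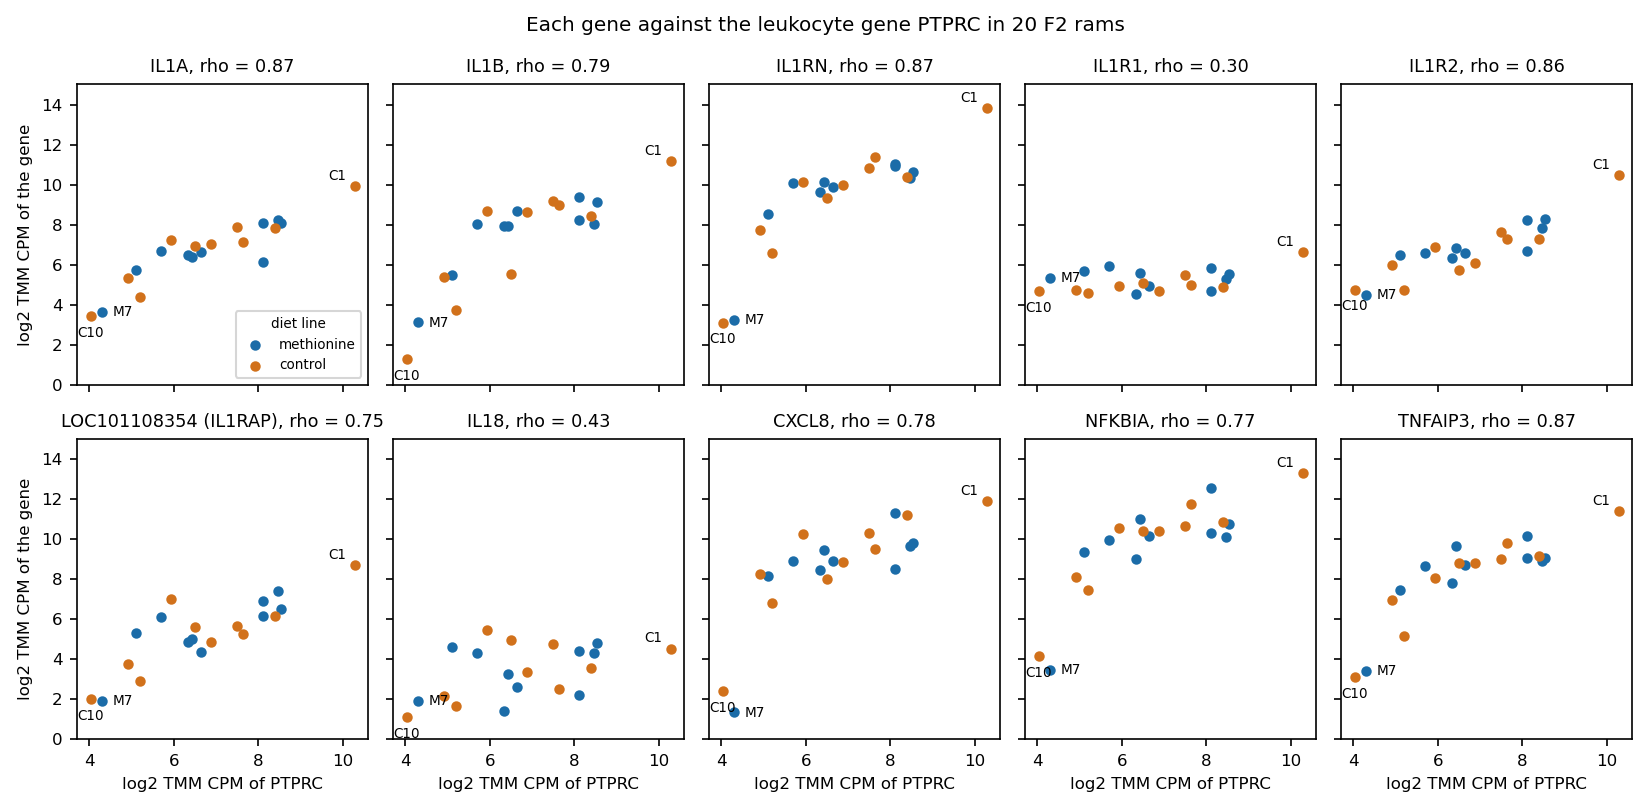
Log2 TMM CPM of each of the 10 genes (vertical axes) against that of the leukocyte gene PTPRC (horizontal axes) in 20 F2 rams, colored by diet line (C1, C10 and M7 mark control rams 1 and 10 and methionine ram 7). IL1A, IL1RN, IL1R2 and TNFAIP3 climb with PTPRC (rho from 0.86 to 0.87), whereas IL1R1 is nearly flat (rho = 0.30), and the points of the lines lie among each other.

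Few of the 10 genes rose with the epithelial gene KRT78. KRT78 left a gap of 4.47 log2 units between methionine ram 7 and control ram 10 and the other rams, so the relation was taken over the other 18 rams. There KRT78 passed with 1 of the 10 genes, IL18 (rho = 0.75, r = 0.71, adjusted permutation p = 0.0044 for r), where 28.0% of all genes rose. IL18 stood at the 89.7 percentile of all genes by its rho, and the other 9 genes between the 57.6 and 67.7 percentile. Their rho with KRT78 ran from 0.22 for CXCL8 to 0.45 for IL1R1. The median rho of all 10 genes with KRT78 was 0.36, and that of all genes tested was 0.01. Leaving out the 2 rams farthest from the median of KRT78, control rams 2 and 5, gave an r of 0.76 for IL18.

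The relation with KRT78 moved with the scaling of the libraries. The TMM factor of a library had a rho of -0.89 with KRT78 over 18 rams and of -0.88 with IL18 over 20 rams, against -0.30 with PTPRC. For the 8 genes that rose with PTPRC it ran from -0.66 for LOC101108354 to -0.34 for TNFAIP3. The total count of a library had a rho of 0.74 with KRT78 and of 0.77 with IL18, against 0.11 with PTPRC. KRT78 and IL18 thus also varied with the total of reads counted in genes. With library size alone as the scaling, the rho with KRT78 was 0.02 for IL18 and -0.59 for IL1R1 (adjusted permutation p = 0.058), and no gene of 13576 passed, while the median rho of all genes went from 0.01 to -0.43. Under the same scaling the count of genes that rose with PTPRC was again 8 of 10. Without a filter on low counts, and with the sum of the other squamous genes in place of KRT78, IL1R1 passed beside IL18 (rho = 0.61 and 0.55), so that the count was 2.

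With both markers in view over the 18 rams and under TMM scaling, the 10 genes parted into 2 sets by partial rho. For 8 genes the partial rho with PTPRC, given KRT78, exceeded the partial rho with KRT78, given PTPRC. It was 0.83 for IL1A, 0.82 for IL1RN, 0.82 for TNFAIP3 and 0.81 for IL1R2, against 0.41, 0.31, 0.22 and 0.27 with KRT78. IL18 showed the opposite order, with 0.20 for PTPRC and 0.75 for KRT78, and so did IL1R1, with 0.22 and 0.43. In a least squares fit on both markers, IL18 kept this order, with slopes per SD of 0.22 for PTPRC and 0.86 for KRT78. IL1R1 did not keep it, with slopes of 0.21 and 0.19, so that its place rests on the measure. PTPRC and KRT78 had a rho of 0.15 with each other in these 18 rams and of 0.38 in all 20. These partial values and slopes are descriptions without a test, and they were not computed with library size alone, where IL1R1 and IL18 did not rise with KRT78.

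**Figure D3:**
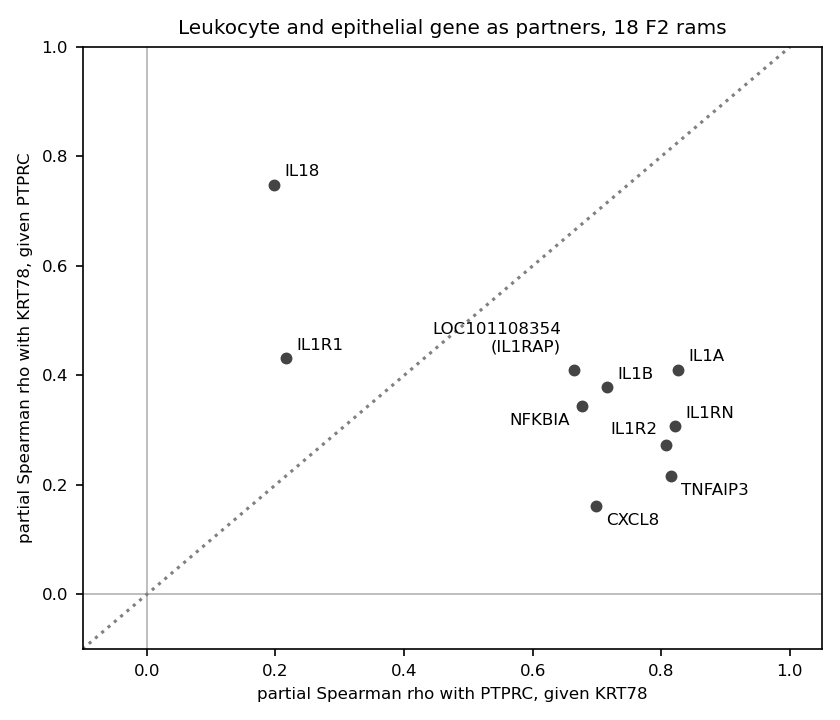
Partial Spearman rho of each gene with PTPRC, given KRT78 (horizontal axis), and with KRT78, given PTPRC (vertical axis), over 18 F2 rams; the dotted line marks equal values. The 8 genes below the line lie between 0.66 and 0.83 for PTPRC, and IL18 and IL1R1 lie above it.

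The 10 genes varied together to different degrees. Over 20 rams the 45 pairs had a rho of 0.29 to 0.94 with a median of 0.72, and the 28 pairs without IL1R1 and IL18 had a median of 0.83. The decoy receptor IL1R2 and the chemokine CXCL8 had a rho of 0.94, as did the feedback genes NFKBIA and TNFAIP3. IL1A and IL1B, which are neighbours with 0 annotated genes between them in ARS-UI_Ramb_v3.0, had a rho of 0.85. IL1RN lies 7 coding genes from IL1B, most of them IL1 relatives, and had a rho of 0.88 with it. IL1R1 and IL1R2 are also near each other, with no coding gene between them, but had a rho of 0.53. Without methionine ram 7 and control ram 10 the median over the 45 pairs was 0.62.

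Genes outside the list came even closer to some of the 10. The highest rho with IL1RN over 20 rams was that of IL10RA, the receptor chain for interleukin 10 (0.96), and the highest with IL1R2 that of CD80, a costimulatory protein of antigen-presenting cells (0.95). IL1A was followed most closely by HIF1A, the oxygen-regulated transcription factor (0.93), and by the NF-kB subunit gene NFKB1 (0.92). IL1B came closest to THBS1, which encodes thrombospondin (0.92), and CXCL8 came closest to IL1R2 and to PTGS2, the inducible prostaglandin synthase (0.93). LOC101108354 had its highest rho with MCL1, a survival gene (0.96). For NFKBIA the nearest gene was TNFAIP3, and for TNFAIP3 it was PXN, the adhesion protein paxillin (0.97), before the cytokine signalling genes TYK2 and IL4R (0.96 each). The nearest genes of IL18 were PPP2R2A, ITM2B and SAT1 (0.96 to 0.98). IL1R1 had the lowest values, with 0.81 for the phosphate transporter gene SLC20A1 and 0.80 for HES1, a Notch target. Also among the 3 nearest, with rho of 0.79 to 0.96, were NUP98 for IL1A, FAM129A and PGAM1 for IL1B, STX6 and SLC1A5 for IL1RN, GNPTG for IL1R1, TAF11 for LOC101108354, DHRS3 and RFX1 for NFKBIA, and ANTXR2 for both IL1R2 and CXCL8.

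The wider pathway was measured through 88 listed genes, of which 73 were in the table and 58 passed the filter. Of the 58 genes, 29 rose with PTPRC and 1 fell, where 7.98% of all genes rose and 2.28% fell. With KRT78 20 rose and 2 fell, where 28.0% of all genes rose and 24.9% fell. The number that rose with KRT78 was thus near the background, and the number that fell was below it. The median rho of the 58 genes was 0.61 with PTPRC and 0.41 with KRT78, against 0.01 with either over all genes tested. All 4 NF-kB subunits that passed the filter rose with PTPRC, with a rho of 0.90 for NFKB1 and 0.77 for NFKB2. Of these RELA, named after its values were seen, also passed with KRT78, with a rho of 0.75 against 0.66 with PTPRC. All 3 inflammasome and processing genes that passed the filter rose as well, such as NLRP3, the sensor of the inflammasome (rho = 0.83), and the protease gene CAPN1 (rho = 0.66). TNF, the cytokine that shares the NF-kB response with IL1, rose with PTPRC (rho = 0.83), and so did the IL18 receptor chain IL18RAP (rho = 0.88). Neither TNF nor IL18RAP passed with KRT78 (rho = 0.14 and -0.07).

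Other pathway genes rose with KRT78 and did not pass with PTPRC. IL33, an epithelial alarmin of the IL1 family, had a rho of 0.66 with KRT78 and of 0.04 with PTPRC. TAB1, an adaptor of the kinase TAK1, had 0.93 and 0.26, and the kinase gene IKBKB, which passed with KRT78 alone, had 0.58 and 0.60. NFKBIZ, an inhibitor and cofactor of NF-kB, had 0.91 with KRT78 and 0.42 with PTPRC. Of the targets, CXCL1, a neutrophil chemokine, had 0.89 with KRT78 and 0.28 with PTPRC, PLAUR, the urokinase receptor, had 0.87 and 0.36, and the mitochondrial dismutase gene SOD2 had 0.72 and 0.56. TNIP1, a partner of TNFAIP3, rose with both (rho of 0.75 with PTPRC and of 0.56 with KRT78). The falling genes were IL36G with either marker and NOS2 with KRT78, named after their values were seen. With library size alone as the scaling, no gene passed with KRT78.

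No difference between diet lines was detectable in the 10 genes. edgeR's quasi-likelihood test called 0 of 13577 genes (0%) between the lines, with 104 genes at an unadjusted p under 0.05 and none of the 10 among them. DESeq2 likewise called 0 genes, with 174 at an unadjusted p under 0.05. The smallest adjusted p by edgeR was 0.9998, so that the interval of each gene states what these rams allow. IL1RN had a log2 fold change, methionine minus control, of -1.07 (SE 0.88), with a 95% interval of -2.89 to 0.75. IL1A had -0.60 (SE 0.66) with an interval of -1.957 to 0.76, and IL1B had -0.63 (SE 0.83) with an interval of -2.33 to 1.07. The narrowest interval was that of IL1R1, from -0.49 to 0.86 around a log2 fold change of 0.19.

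Among the remaining receptors and ligands, the log2 fold change was -0.68 (SE 0.67) for IL1R2, -0.32 (SE 0.69) for LOC101108354 and -0.23 (SE 0.54) for IL18. Among the NF-kB response genes it was -0.61 (SE 0.82) for CXCL8, -0.47 (SE 0.83) for NFKBIA and -0.37 (SE 0.74) for TNFAIP3. The point estimate was negative for 9 of the 10 genes, with a median of -0.53 against -0.05 over all genes tested. Control ram 1 set this sign: without it 2 of the 10 estimates were negative, those of IL18 and CXCL8, and the median was 0.24. The leukocyte list in sum had a mean of 788 ± 717 TMM CPM (SD, n = 10) in the methionine line and of 1352 ± 2596 (SD, n = 10) in the control line, lower in the methionine line as were the estimates of 9 of the 10 genes, with control ram 1 at 8595. On the scale of mean log2 values, which unlike edgeR's fold changes do not compare group means, both lists were slightly higher in the methionine line. The leukocyte list was higher by 0.05 (permutation p = 0.95, 100000 resamples, two-sided) and the squamous list by 0.18 (permutation p = 0.86). With PTPRC and KRT78 as covariates 3 of the 10 estimates were negative, with a median of 0.11, and again no gene was called.

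The pathway around the 10 genes gave the same count of calls between diet lines. None of the 58 genes tested was called, and 37 had a negative log2 fold change, with a median of -0.20 against -0.05 over all genes tested. Control ram 1 is included in these estimates, and values without it are not given for the pathway. Values ranged from -1.40 (SE 0.85) for TNF and -1.14 (SE 0.86) for NFKBID to 0.74 (SE 0.60) for CCL20, which are the ends of the list and were named after their values were seen. Both low ends had their highest level in control ram 1. It had 1095 TMM CPM of TNF against a median of 48.7 over all rams, and 2023 of NFKBID against 81.8.

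**Figure D4:**
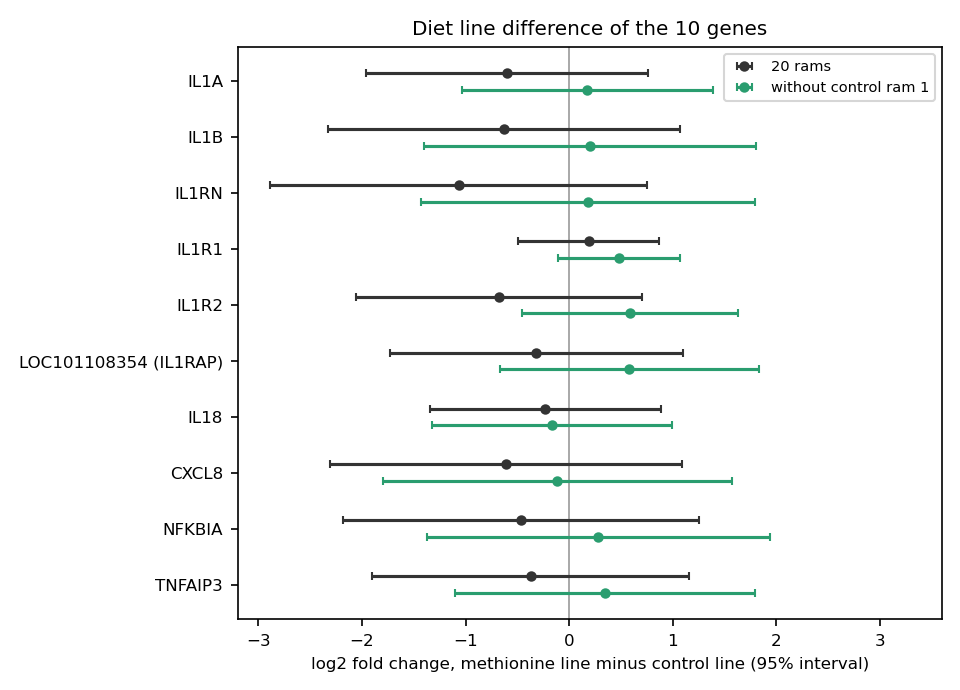
Log2 fold change of each of the 10 genes between diet lines, methionine minus control (horizontal axis), with its 95% interval, over all 20 F2 rams and without control ram 1. All intervals cross 0, and 7 of the 9 negative estimates turn positive once control ram 1 is left out.

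The balance of antagonist to ligand and of decoy to signalling receptor did not differ detectably between the lines. The log2 ratio of IL1RN to IL1B, in CPM that is not corrected for gene length, had a lowest, median and highest value of 0.13, 1.86 and 3.05 in the methionine line and of 1.35, 2.14 and 3.83 in the control line. The mean was 1.85 ± 0.82 (SD, n = 10) against 2.23 ± 0.76 (SD, n = 10), a difference of -0.38 (permutation p = 0.30, 100000 resamples, two-sided). The lowest ratio was that of methionine ram 7. Without this ram and control ram 10 the difference was -0.23 (exact permutation p = 0.50), and with counts summed by F0 sire it was -0.055 (exact permutation p = 0.82). The log2 ratio of IL1R2 to IL1R1 had a mean of 1.50 ± 1.09 (SD, n = 10) in the methionine line and of 1.61 ± 1.16 (SD, n = 10) in the control line, a difference of -0.11 (permutation p = 0.83). Without control ram 1 this difference was 0.14 (exact permutation p = 0.77), without methionine ram 7 and control ram 10 it was -0.022 (exact permutation p = 0.96), and by sire it was -0.37 (exact permutation p = 0.49). The ratios overlapped between the lines over most of their range.

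DNA methylation at 1 cytosine of LOC101108354 was higher on average in the methionine line in each generation. The cytosine lies on the plus strand at position 215089867 of chromosome 1 in Oar_rambouillet_v1.0, in an intron of the gene within a LINE repeat as the study annotated it. The study chose this cytosine for its difference in these same samples, so that neither the direction nor the tests below are independent evidence. In F0 the levels of the methionine group were 92.6, 100, 92.3, 97.3 and 57.9% of reads, and those of the control group were 91.7, 51.4, 44.1, 42.9 and 0%, from 19 to 37 reads each. At such depth a single level is imprecise: the exact Clopper-Pearson 95% interval ran from 33.5 to 79.7% for methionine sire 23 (11 of 19 reads), and for control sire 24 (0 of 29 reads) its upper bound was 11.9%, where the limit of 3 reads for a count of 0 is 10.3%. These bounds cover counting error only. The groups overlapped in that 1 control ram, sire 4, lay above the lowest methionine ram, sire 23. The mean was 88.0 ± 17.1% (SD, n = 5) against 46.0 ± 32.6% (SD, n = 5), a difference of 42.0 points (exact permutation p = 0.016, two-sided). This test moved all rams freely between the groups, since the labels do not name the twin pairs. A test within 5 twin pairs could not give a two-sided p below 0.0625. The tests of the F1 pools and F2 rams took no account of twin or sire either.

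In the F1 pools the levels were 92.6, 89.5, 78.6, 50.0 and 86.8% in the methionine line and 82.9, 62.9, 0, 53.8 and 31.0% in the control line. The mean was 79.5 ± 17.3% (SD, n = 5) against 46.1 ± 31.8% (SD, n = 5), a difference of 33.4 points (exact permutation p = 0.079, two-sided). Leaving out 1 pool in turn gave 21.8 points without that of control sire 10 (exact permutation p = 0.16) to 42.6 points without that of control sire 4 (exact permutation p = 0.048), and 40.7 points without that of methionine sire 11 (exact permutation p = 0.032). In F2 the level had a lowest, median and highest value of 2.94, 76.9 and 100% in the methionine line and of 0, 34.2 and 100% in the control line. The mean was 69.2 ± 32.6% (SD, n = 10) against 40.0 ± 36.1% (SD, n = 10), a difference of 29.3 points (permutation p = 0.071, 100000 resamples, two-sided). Both F2 lines thus held rams near 0% and near 100%.

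The F2 rams fell into 3 sets by their level at this cytosine, parted by gaps of more than 20 points. There were 4 rams at 0 to 3.85%, 9 rams at 31.6 to 62.5% and 7 rams at 91.3 to 100%. In bisulfite reads a C-to-T difference in the DNA and an unmethylated cytosine give the same base on this strand, and the 2 cannot be told apart from these counts. Within the middle set, the level and log2 TMM CPM of LOC101108354 had an r of 0.51 (exact permutation p = 0.15) and a rho of 0.37 (exact permutation p = 0.34), and r was -0.18 without the 2 rams farthest from the median level. Without control ram 10 this r was 0.21 (exact permutation p = 0.61), and with library size alone it was 0.25 (exact permutation p = 0.52). Within the upper set r was 0.31 (exact permutation p = 0.52) and rho 0.34 (exact permutation p = 0.46), with an r of -0.21 without the 2 farthest rams. The lowest set was too small for a correlation, and no r over all rams is given because the levels form separate sets. Its 4 rams had 1.90, 2.91, 3.77 and 5.66 log2 TMM CPM of LOC101108354, the first 2 from 8 and 13 reads. The medians of the middle and upper sets were 5.59 and 6.10. This contrast between sets was not tested. In the same 4 rams, in the same order, PTPRC stood at 4.31, 5.21, 4.93 and 7.49 log2 TMM CPM. Its median over all 20 rams was 6.58, and its part in the contrast was not tested either. The study itself listed a positive Pearson correlation of this cytosine with expression of IL1RAP in F2, at its own lenient threshold.

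**Figure D5:**
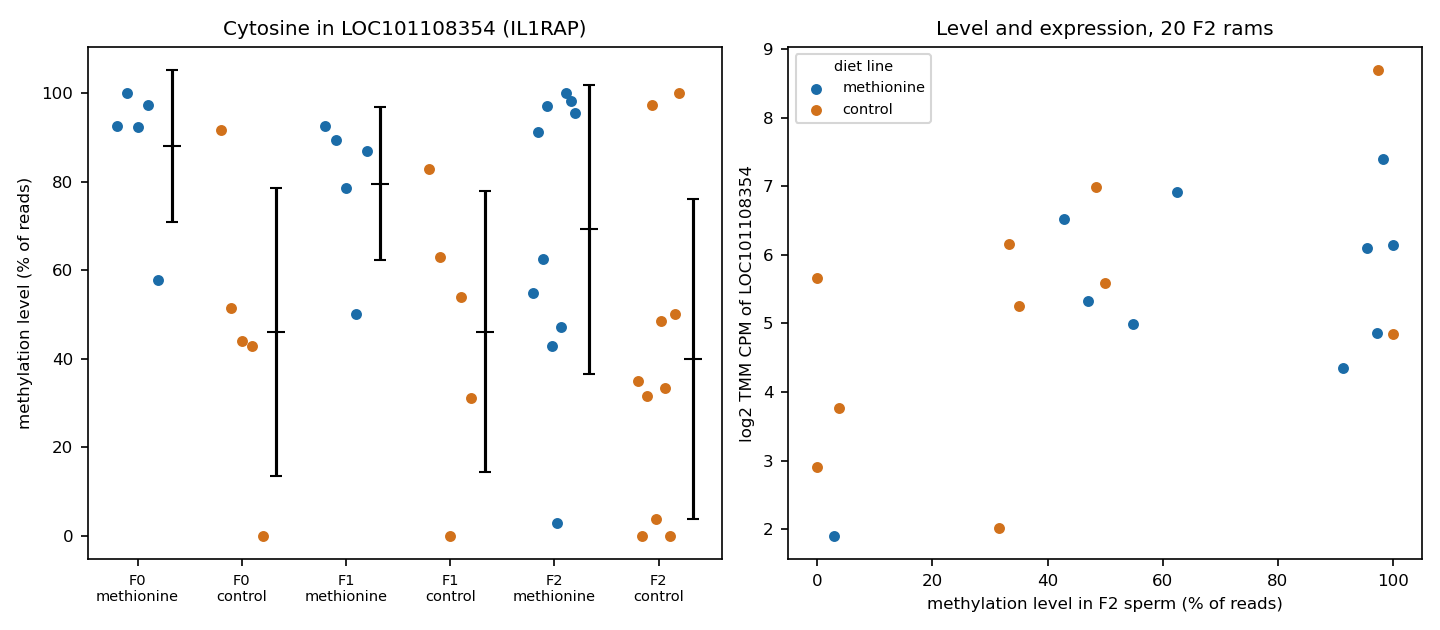
Left, methylation level at the cytosine in LOC101108354 (% of reads) for each F0 ram, F1 pool and F2 ram by diet line, with mean and SD beside the points; right, log2 TMM CPM of LOC101108354 against the level in 20 F2 rams. The F2 levels lie near 0%, from 31.6 to 62.5%, or above 91%, and expression varies widely within each of these sets.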

How the data were processed

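The 10 genes, the pathway lists and the marker lists were chosen with earlier results of these data known. For RNA, the authors trimmed single-end reads with Trimmomatic, aligned them to Oar_rambouillet_v1.0 with STAR and deposited raw counts per gene, with no pooling. The strand setting of the counting is not given in the sources used here, so reads of overlapping antisense genes cannot be told apart. For methylation, the authors used Trim Galore, Bismark with Bowtie2 and methylKit, and deposited counts of reads and of methylated reads per cytosine. The 40 columns of unmethylated reads in the CG tables were not used.

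A gene was kept when over 10 rams reached 15 counts. Counts were scaled by TMM and tested for diet line with edgeR 4.0.16 (quasi-likelihood, Benjamini-Hochberg adjusted) in R 4.3.3, with DESeq2 1.42.0 as the alternative. Correlations used log2 CPM with a prior count of 2 and permutation tests with 100000 resamples, exact below 10 rams, in Python 3.11.15 (NumPy 2.4.6, SciPy 1.17.1). Rams were parted where sorted log2 CPM of a marker left a gap of more than 2. Both scripts were tested on simulated data. A low total count limits scarce genes most, since counts of IL18 went down to 5. Named genes are the 10, PTPRC, KRT78, the 3 genes of highest rho with each of the 10, pathway genes called by diet, and the 2 of each pathway list with the highest mean CPM; others are stated as named after their values were seen. Of the genes nearest to the 10, 1 is not reported here. Member loci were not searched for further cytosines, because no annotation of the build was at hand.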

Additional observations from a re-analysis of the deposited data

Results flagged for a closer look

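In 8 of 30 groups of samples tested, 1 sample lay far from the others of its group by Dixon's test at the 95% level. Chance flags about 1 in 20 groups, and the same rams recur across genes that vary together, so these are not independent. In the methionine line ram 7 was far below the rest for IL1RN, at 3.23 log2 TMM CPM where the other rams had 8.504 to 11.01. It was also far below for CXCL8, at 1.34 against 8.18 to 11.30, and for NFKBIA, at 3.46 against 9.01 to 12.57. For TNFAIP3 this ram had 3.41 against 7.45 to 10.13, and for IL1R2 it had 4.48 against 6.34 to 8.27. This ram had summed levels of 72.3 TMM CPM for the leukocyte genes, 246 for the squamous genes and 18575 for the spermatid genes.

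In the control line ram 1 was far above the rest for IL1R1, at 6.61 log2 TMM CPM against 4.597 to 5.46, and for IL1R2, at 10.48 against 4.74 to 7.62. Its leukocyte genes summed to 8595 TMM CPM, the highest of all rams, and its lymphocyte genes to 53.2, below the median of 82.3. Methylation at the cytosine of LOC101108354 was flagged for F0 sire 23 of the methionine group, at 57.9% where the other 4 rams had 92.3 to 100%.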

How the results depend on the processing

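No alternative called any of the 10 genes, or any gene, between diet lines. Of the 10 estimates, 3 were negative with PTPRC and KRT78 as covariates, 2 without control ram 1 and 2 without methionine ram 7 and control rams 1 and 10, the last sets being chosen after seeing the data. With the covariates the log2 fold change was 0.40 for IL1B, 0.19 for IL1RN, 0.0080 for IL1R2, 0.072 for LOC101108354, 0.14 for NFKBIA and 0.35 for TNFAIP3. DESeq2 gave 0.14 for IL1RN and 0.50 for IL1R2. Without control ram 1 it was 0.18 for IL1A, 0.20 for IL1B, 0.18 for IL1RN, 0.58 for IL1R2, 0.58 for LOC101108354, 0.28 for NFKBIA and 0.35 for TNFAIP3, and without methionine ram 7 and control rams 1 and 10 it was 0.16, 0.18, 0.17, 0.59, 0.57, 0.26 and 0.33. All these values had adjusted p of at least 0.999.

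Genes that rose with PTPRC numbered 0 of 10 with counts summed by F0 sire and 4 of 10 without methionine ram 7 and control rams 1 and 10. Over all genes they numbered 1084, against 0 by sire, 700 without methionine ram 7 and control ram 10, 586 without the 2 rams farthest from the median and 459 without methionine ram 7 and control rams 1 and 10. By sire, rho with PTPRC was -0.10 for IL1R1 and -0.48 for IL18. Genes that rose with KRT78 numbered 0 of 10 with library size alone, 2 without a filter and 2 with the summed list, and over all genes 3797, against 0 with library size and 738 by sire. The count by sire included the rams that the main test with KRT78 left out.

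With library size alone, rho with KRT78 was -0.10 for IL1A, -0.075 for IL1B, -0.028 for IL1RN, -0.59 for IL1R1, -0.11 for IL1R2, -0.14 for LOC101108354, -0.075 for CXCL8 and -0.061 for TNFAIP3. By sire it was -0.32 for IL1A, -0.33 for IL1B, -0.37 for IL1RN, -0.36 for IL1R2, -0.50 for LOC101108354, -0.55 for CXCL8, -0.091 for NFKBIA and -0.25 for TNFAIP3. The cause of these changes of sign was not tested. By sire rho with KRT78 stayed positive for IL1R1, at 0.10, and for IL18, at 0.90 (adjusted permutation p = 0.036). IL18 was thus the 1 of the 10 genes that passed with KRT78 by sire, where 4.14% of all genes did. The sums by sire included the rams that the main test with KRT78 left out. This result is therefore not the main test repeated by sire. It was obtained under TMM scaling only. With library size alone, IL18 had a rho of 0.02 with KRT78 over rams, and sums by sire were not tested under that scaling. The ratio of IL1R2 to IL1R1 differed by 0.14 without control ram 1. Leaving out each F0 ram moved the methylation difference between 30.5 and 53.4 points, and each F1 pool between 21.8 and 42.6 points. The search for called cytosines in the loci and its alternatives were not run, for want of an annotation of the build.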

Other observations

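Rams of one F0 sire were about as far apart as rams of different sires of the same line. The median difference of log2 TMM CPM over 10 pairs of one sire was smaller than over 80 pairs of different sires for 5 of the 10 genes. It was 2.94 against 2.41 for IL1B and 2.32 against 1.40 for IL18, and 1.16 against 1.59 for TNFAIP3. Control rams 1 and 10, the highest and the lowest for IL1A, IL1B, IL1RN and TNFAIP3 among all 20, both descended from control sire 6. Methionine rams 6 and 7, both of sire 9, had 308 and 21.8 TMM CPM of IL1R2. These are descriptions without a test.

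At the cytosine of LOC101108354 the level of an F0 sire and that of its F2 grandsons often differed. Control sire 24 had 0% where its F1 pool had 31.0% and its 2 grandsons had 50.0 and 100%. Methionine sire 9 had 92.3%, its F1 pool 78.6% and its grandsons 42.9 and 2.94%. Control sire 10 had 44.1%, its F1 pool 0% and its grandsons 3.85 and 48.5%.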
